A study of Mus musculus with 9 samples.

Results

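Transcripts of 8 genes of surface defence and the acute-phase response were followed through 3 sorted cell populations of the mouse colon epithelium. The genes were chosen by name, Saa1, Saa2, Saa3, Lcn2, Lypd8, Pigr, Il18 and Tgm3, and are 8 of the 24421 gene symbols in the expression table. Messenger RNA was sequenced from 9 libraries, 3 per population, of colon crypt cells from adult C57BL/6J mice without treatment, which the labels give as female. The enterocyte-enriched population, labelled as the top of the crypt, was Epcam-positive, Cd44-negative and Cd66a-high. The goblet-enriched population was Epcam-positive, Cd44-positive and Kit-positive, and the Lgr5-enriched population was Epcam-positive, Cd44-positive and Kit-negative, both labelled as the crypt bottom. Cells with Cd3, Cd16/Cd32, Cd31 or Cd45 at the surface were gated out of all of them. These are enriched populations and not pure cell types, and in such bulk samples fewer cells of a type and less RNA per cell cannot be told apart.

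The colon surface is covered by absorptive colonocytes that meet the luminal bacteria through mucus, secreted proteins and a cell coat. Serum amyloid A proteins, encoded by Saa1, Saa2 and Saa3, are lipid-binding acute-phase proteins that liver and gut epithelium make in inflammation and in contact with bacteria. Lcn2 encodes lipocalin 2, which binds bacterial siderophores and so withholds iron. Lypd8 encodes a GPI-anchored, heavily glycosylated protein of the colonic surface that binds flagellated bacteria. Pigr encodes the polymeric immunoglobulin receptor, which carries IgA and IgM through the epithelium into the lumen. Il18 encodes a cytokine stored as a precursor and cut by caspase-1, and Tgm3 encodes a transglutaminase that crosslinks proteins.

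Saa1, Saa2 and Saa3 lie close together on chromosome 7 (mm10, GENCODE M21), Saa1 at chr7:46740497-46742980 on the minus strand, Saa2 at chr7:46751790-46754313 on the plus strand and Saa3 at chr7:46711998-46715700 on the minus strand. Saa1 and Saa2 point away from each other, and their promoters are nearly the same sequence, which is why both are shown. RefSeq promoter windows (GRCm38.p6, 250 bases before to 50 after the start) were found for 8 of the 8 genes, and 287 of 300 aligned positions were identical between Saa1 and Saa2 (95.7%), with 12 mismatches and 1 gap. The 250 bases before each start follow, 5′ to 3′ on the gene's own strand, with capitals for bases that differ from, or have no partner in, the other gene.
Saa1, chr7:46742981-46743230, minus strand: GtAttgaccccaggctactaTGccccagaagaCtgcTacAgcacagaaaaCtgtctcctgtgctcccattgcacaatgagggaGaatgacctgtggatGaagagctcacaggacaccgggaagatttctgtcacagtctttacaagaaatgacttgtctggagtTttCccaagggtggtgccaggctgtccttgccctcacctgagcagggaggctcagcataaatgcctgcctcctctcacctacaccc
Saa2, chr7:46751583-46751832, plus strand: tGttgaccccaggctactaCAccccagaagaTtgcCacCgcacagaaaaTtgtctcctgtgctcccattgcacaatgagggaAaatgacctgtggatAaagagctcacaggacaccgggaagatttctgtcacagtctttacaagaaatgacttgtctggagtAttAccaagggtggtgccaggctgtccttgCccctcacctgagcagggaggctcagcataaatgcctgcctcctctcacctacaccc

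C/EBP transcription factors are classical regulators of acute-phase promoters, so their core TTGCNNAA was searched on both strands of the 8 genes' windows. It was present in those of Saa1, Saa2, Saa3, Lcn2 and Tgm3, 5 of the 8 genes, and in 10.8% of all 32851 RefSeq promoter windows. All these windows had the same length, and the count is by gene while the share is by window. The Saa1 and Saa2 matches lie in nearly the same sequence and are not independent. The matches are shown in capitals with 16 bases on each side, on the strand that reads TTGCNNAA.
Saa1, chr7:46743139-46743178, minus strand: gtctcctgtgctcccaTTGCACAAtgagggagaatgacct
Saa2, chr7:46751634-46751673, plus strand: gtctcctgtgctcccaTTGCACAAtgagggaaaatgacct
Saa3, chr7:46715752-46715791, plus strand: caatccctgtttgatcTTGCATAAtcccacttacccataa
Lcn2, chr2:32387932-32387971, minus strand: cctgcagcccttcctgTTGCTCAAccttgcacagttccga
Tgm3, chr2:130012164-130012203, plus strand: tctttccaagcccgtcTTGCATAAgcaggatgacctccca
The STAT core TTCNNNGAA was present in the Pigr window and in 8.30% of all windows, and the NF-kappaB consensus in 0 of the 8 genes' windows and in 4.51% of all. The IRF core AANNGAAA, present in 23.9% of all windows, was found for Saa3, Pigr, Il18, Tgm3 and one of the Lypd8 windows. A match describes the letters only and does not show that a factor was bound.

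Values are in TPM, transcripts per 1000000, which corrects for transcript length. Depth was 11.2 to 26.8 M reads per library (M, times 1000000), so that a single read per kb of transcript stood for 0.0958 to 0.208 TPM. Summed TPM of 12 colonocyte markers was 8904 to 14176 in the enterocyte-enriched libraries, against 2651 to 3019 in the goblet-enriched and 1741 to 2059 in the Lgr5-enriched ones. Goblet cell markers summed to 15548 to 23177 TPM in the enterocyte-enriched libraries, 49075 to 65032 in the goblet-enriched and 1569 to 1765 in the Lgr5-enriched ones, and stem cell markers to 144 to 260, 668 to 775 and 1346 to 1532 in the same order. A single library went against its label: enterocyte-enriched replicate 1 had 0.128 TPM of Xist, against 110.3 to 203.7 in the other 8, and 138.6 TPM of 4 Y-linked genes, against at most 0.325. All 8 genes were highest in that library among the 3 enterocyte-enriched ones, which held for 29.5% of the 12888 genes tested. Goblet-enriched replicate 3 had a mean log2(TPM + 1) over the 12 colonocyte markers of 5.56, against 3.41 and 3.88 in goblet-enriched replicates 1 and 2, while their summed TPM was 2971 in replicate 3, against 3019 and 2651. What these libraries' differences contribute to a result was not tested, and the values without them are given below.

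Populations were compared with limma on log2(TPM + 1), with p-values adjusted over all genes tested by Benjamini-Hochberg and a threshold of 0.05 for a call. Of the 8 genes, 7 passed the filter on low values, and Saa2 did not. In the enterocyte-enriched against the Lgr5-enriched population 5 of the 7 were called higher (Saa1, Saa3, Lypd8, Il18 and Tgm3) and 0 lower, where 49.6% of all genes tested were called, 12% higher and 37.6% lower. The same 5 were called higher in the enterocyte-enriched against the goblet-enriched population, where 44.1% of all genes were called, 15.9% higher and 28.2% lower. In the goblet-enriched against the Lgr5-enriched population 0 were higher and 1 was lower, Il18, where 34.3% of all genes were called, 10.7% higher and 23.6% lower. By the values alone, 6 of the 7 had every enterocyte-enriched library above every Lgr5-enriched one and 0 every one below, where 16.2% of all genes did the first and 45.6% the second. Against goblet-enriched libraries the numbers were 5 and 0, where 20.4% and 36% of all genes did so. Every goblet-enriched library was above every Lgr5-enriched one for 0 of the 7 and below for 2, Lypd8 and Il18, where 14.1% and 33.9% of all genes were. These comparisons share libraries and are not independent.

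**Figure D1:**
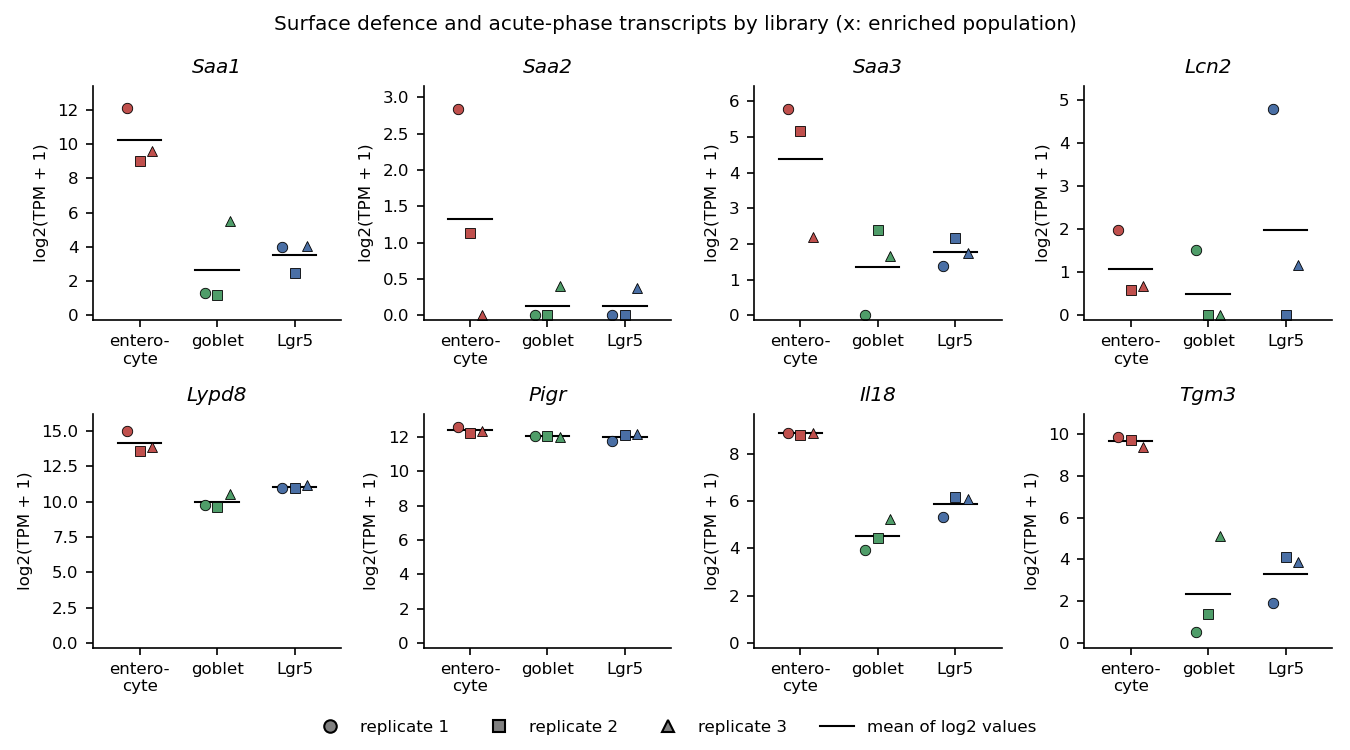
Expression of the 8 genes in each of the 9 libraries, as log2(TPM + 1) on the vertical axis, with the populations along the horizontal axis, the replicate numbers as symbols and a line at the mean of the log2 values. Saa1, Lypd8, Il18 and Tgm3 are higher in each enterocyte-enriched library than in any other, Pigr is close to level, and Saa2 and Lcn2 are near 0 in most libraries.

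The split of calls between higher and lower depended on scaling. The median log2 fold change over all genes tested was -0.35 for enterocyte-enriched against Lgr5-enriched, -0.20 for enterocyte-enriched against goblet-enriched and -0.26 for goblet-enriched against Lgr5-enriched. It was 0.03, -0.04 and -0.05 under median-of-ratios scaling. Of all genes called, 24.2% were higher in the first comparison and 54.6% under median-of-ratios scaling, 36.1% and 51.7% in the second, and 31.3% and 54.5% in the third. Fold changes below are given as fitted, and relative to the median of all genes where that matters.

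Saa1 had the largest fold changes of the 7 tested genes between the enterocyte-enriched population and the other two, an order with Tgm3 that turned without enterocyte-enriched replicate 1. It had 4378, 518 and 789 TPM in enterocyte-enriched replicates 1, 2 and 3, against 1.44, 1.25 and 44.3 TPM in the goblet-enriched and 15.0, 4.42 and 15.5 TPM in the Lgr5-enriched ones. The enterocyte-enriched values lay above all others, and within that population the library labelled replicate 1 was 6.70 times the mean of the other two. The means were 1895 ± 2155, 15.7 ± 24.8 and 11.6 ± 6.25 TPM (SD, n = 3 each) in the enterocyte-enriched, goblet-enriched and Lgr5-enriched populations.

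Against Lgr5-enriched cells Saa1 was 163-fold higher by means (limma log2 fold change 6.75, SE 1.18, adjusted p = 0.001604). Without enterocyte-enriched replicate 1 the ratio of means was 56.2 and the call held (limma adjusted p = 0.006443). Against goblet-enriched cells Saa1 was 121-fold higher (log2 fold change 7.59, limma adjusted p = 0.001048), 41.7-fold without enterocyte-enriched replicate 1 and 1407-fold without goblet-enriched replicate 3. That goblet-enriched library held 139 of the 148 Saa1 reads of its population. Between goblet-enriched and Lgr5-enriched cells Saa1 was not called (log2 fold change -0.84, limma adjusted p = 0.6106).

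Saa2 was low beside it. It had 6.14, 1.19 and 0 TPM in enterocyte-enriched replicates 1, 2 and 3 from 18, 5 and 0 reads, against 0, 0 and 0.317 TPM in the goblet-enriched and 0, 0 and 0.291 TPM in the Lgr5-enriched ones. The 95% Poisson interval, which covers counting error only, ran to 9.70 TPM in the highest library. The limit taken for a count of 0, which is 3 reads, stood for 0.471 to 1.01 TPM in the 5 libraries without a read. In the enterocyte-enriched libraries 17692 reads were assigned to Saa1 and 23 to Saa2. RefSeq lists each of these symbols as an older name of the other, and the table gives no coordinates, so which of the paralogs each symbol stands for could not be checked. Their coding sequences are 95.1% identical, with 18 mismatches over 366 aligned positions. Of the 510 windows of 100 bases in the Saa1 transcript, 0 occurred in the transcript of another gene.

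Saa3, which macrophages and adipocytes also make in mice, stood far below Saa1 in the enterocyte-enriched libraries, but not in goblet-enriched replicate 2, where it was above Saa1, or in Lgr5-enriched replicate 2, where the levels were close. It had 53.7, 34.9 and 3.61 TPM in enterocyte-enriched replicates 1, 2 and 3, against 0, 4.28 and 2.19 TPM in the goblet-enriched and 1.62, 3.50 and 2.34 TPM in the Lgr5-enriched ones. Replicates 1 and 2 of the enterocyte-enriched population stood out, while replicate 3 lay within the goblet-enriched range and just above the Lgr5-enriched one. Saa3 was called higher against Lgr5-enriched cells (12.4-fold by means, limma log2 fold change 2.61, SE 0.89, adjusted p = 0.03525) and against goblet-enriched cells (14.3-fold, limma log2 fold change 3.02, SE 0.89, adjusted p = 0.02194).

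Without enterocyte-enriched replicate 1 both Saa3 calls were lost (7.75-fold and 8.94-fold by means, limma adjusted p = 0.1239 and 0.07838). Over 18 alternatives the limma adjusted p ran from 0.0024 to 0.155 against Lgr5-enriched cells, with 9 losing the call, and from 0.0018 to 0.183 against goblet-enriched cells, with 6 losing it. Without goblet-enriched replicate 2 the ratio to goblet-enriched cells was 28.1.

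Some leukocyte transcripts moved with Saa3 inside the enterocyte-enriched population, and others did not. The gene with the pattern most like Saa3 over the 9 libraries was Lyz2, the lysozyme of myeloid cells (Pearson r = 0.94 on log2 values, a description over libraries that share populations). Lyz2 had 232, 133 and 12.9 TPM in enterocyte-enriched replicates 1, 2 and 3, against 0.166, 11.5 and 8.79 TPM in the goblet-enriched and 0, 12.7 and 9.07 TPM in the Lgr5-enriched ones. Tyrobp, a signalling adaptor of myeloid and NK cells, had 11.8, 6.91 and 0.308 TPM in the enterocyte-enriched libraries and at most 1.37 TPM elsewhere. Fcer1g, an Fc receptor subunit, had 5.06, 3.30 and 0.265 TPM there and at most 0.882 TPM elsewhere. Tyrobp and Fcer1g were picked from 17 leukocyte markers after their values were seen. Of the 5 markers tested, Tyrobp was called higher in the enterocyte-enriched against the Lgr5-enriched population and Lcp1 lower, and Cd68, Itgam and Cd52 were not called. In that comparison 12% of all genes tested were called higher and 37.6% lower. The Tyrobp call was lost in 8 of 18 alternatives, among them those without enterocyte-enriched replicate 1 or 2. Lcp1, an actin-bundling protein of leukocytes, had 6.38, 8.76 and 8.52 TPM in enterocyte-enriched replicates 1, 2 and 3, and averaged 23.2 ± 4.20 TPM in the goblet-enriched and 20.6 ± 5.12 TPM in the Lgr5-enriched population. It was called lower against both (limma adjusted p = 0.001319 against Lgr5-enriched and 0.0007769 against goblet-enriched cells). Ptprc, which encodes the gated antigen Cd45, was at most 1.20 TPM in any library. Summed TPM of the 17 leukocyte markers in the table was 48.6, 37.1 and 17.8 in enterocyte-enriched replicates 1, 2 and 3. It was 37.9 to 41.6 in the goblet-enriched and 30.5 to 42.0 in the Lgr5-enriched libraries. Mean log2(TPM + 1) over these markers was 1.36, 1.16 and 0.622 in the same enterocyte-enriched replicates. That mean was 0.686 to 0.905 in the goblet-enriched and 0.721 to 0.774 in the Lgr5-enriched libraries. The part of leukocyte RNA in the Saa3 difference was not tested.

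**Figure D2:**
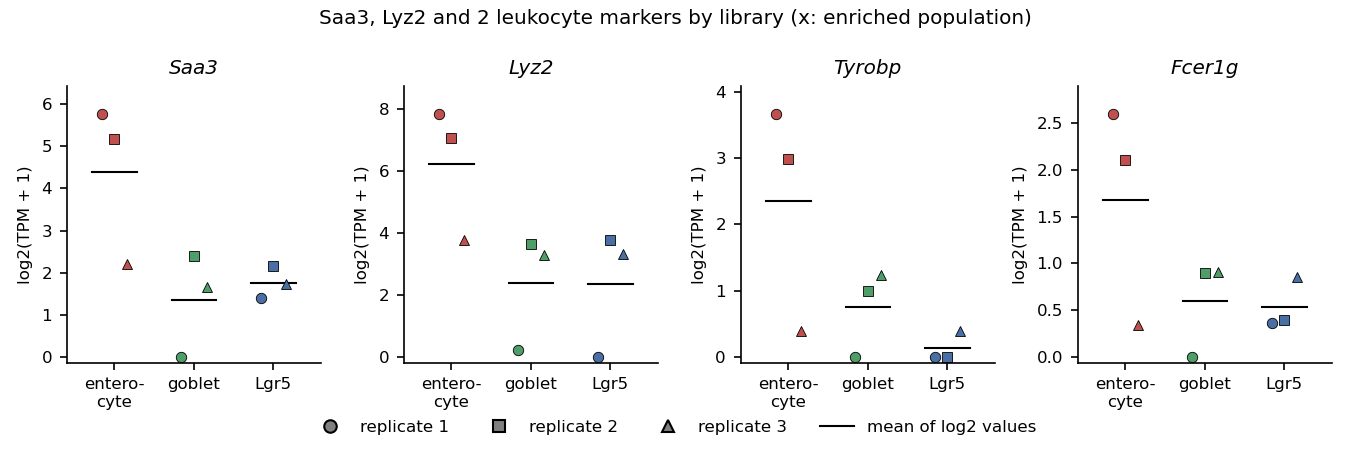
Saa3, Lyz2 and the leukocyte markers Tyrobp and Fcer1g in the 9 libraries, as log2(TPM + 1) by population, with replicate numbers as symbols and a line at the mean of the log2 values. In the enterocyte-enriched population replicates 1 and 2 are high and replicate 3 is low for all 4 genes.

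Lcn2 did not follow the enterocyte-enriched population. It had 2.93, 0.510 and 0.613 TPM in enterocyte-enriched replicates 1, 2 and 3, against 1.85, 0 and 0 TPM in the goblet-enriched and 26.7, 0 and 1.25 TPM in the Lgr5-enriched ones. A single library, Lgr5-enriched replicate 1, held 238 of the 271 Lcn2 reads of the study. Lcn2 was called in none of the 3 comparisons (limma adjusted p = 0.5057 against Lgr5-enriched and 0.6786 against goblet-enriched cells for the enterocyte-enriched population, and 0.3037 for goblet-enriched against Lgr5-enriched cells). Without Lgr5-enriched replicate 1 the first log2 fold change was 0.50, in place of -0.90.

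Lcn2 was the only one of the 8 genes with its highest value in replicate 1 of all 3 populations. Among all genes tested 1293 of 12888 had this pattern (10%), 1305 had it for replicate 2 and 1329 for replicate 3. Among the 100 tested genes of 10 lists around these 8 genes it held for 27 with replicate 1, 11 with replicate 2 and 6 with replicate 3. The genes next described were picked from these lists after their values were seen. Reg3b, a bactericidal lectin, had 796, 2.67 and 33.7 TPM in enterocyte-enriched replicates 1, 2 and 3, against 97.7, 1.75 and 1.78 TPM in the goblet-enriched and 2607, 4.35 and 38.8 TPM in the Lgr5-enriched ones. Its relative Reg3g had 475, 143 and 1066 TPM in replicate 1 of the enterocyte-enriched, goblet-enriched and Lgr5-enriched populations and at most 13.3 TPM in the other 6 libraries. Nos2, the inducible nitric oxide synthase, was among the 3 genes most like Lcn2 (r = 0.94) and had 38.4, 12.1 and 160 TPM in replicate 1 of the same populations and at most 8.23 TPM elsewhere.

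None of Reg3b, Reg3g and Nos2 was called in the unblocked fit. With the replicate number as a block, Reg3b and Reg3g were higher in enterocyte-enriched than in goblet-enriched cells (limma adjusted p = 0.0193 and 0.0221) and lower in goblet-enriched than in Lgr5-enriched cells (0.00691 and 0.00668). In the same fit Nos2 was lower in the enterocyte-enriched (0.0117) and in the goblet-enriched (0.00238) than in the Lgr5-enriched population, by limma adjusted p. Lcn2 was called in none of the 3 comparisons there either. Reg3b, Reg3g and Nos2 were picked after their high replicate 1 values were seen, and the block takes out such differences between replicates. Their p-values in that fit are therefore a description and not an independent test. The labels name no batch for replicate 1, and what animal and run contribute cannot be told apart here. Its enterocyte-enriched library had 138.6 TPM of Y-linked transcripts. Its goblet-enriched and Lgr5-enriched libraries were among the 8 with Xist at 110.3 TPM or more and Y-linked transcripts at 0.325 TPM or less. The libraries of replicate 1 are thus not all from 1 animal.

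**Figure D3:**
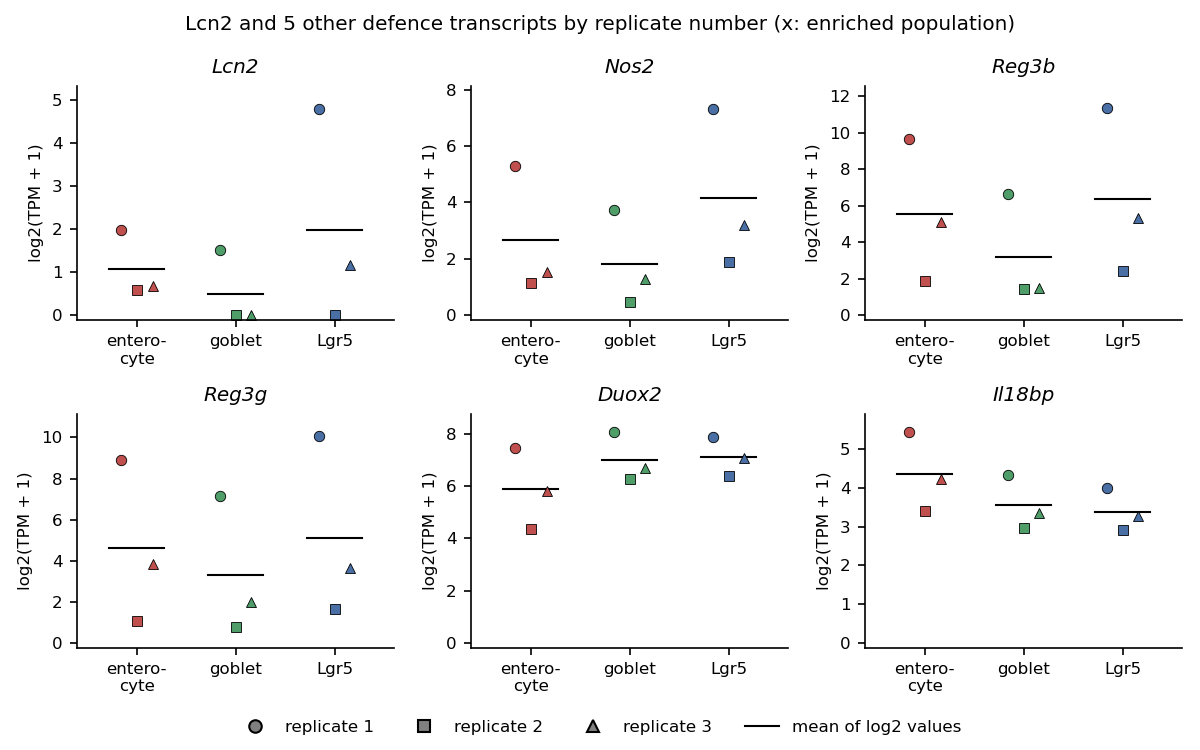
Lcn2 and 5 other defence genes (Nos2, Reg3b, Reg3g, Duox2 and Il18bp), chosen after their values were seen, as log2(TPM + 1) in the 9 libraries by population, with replicate numbers as symbols and a line at the mean of the log2 values. Replicate 1 is the highest library of each population for all 6 genes.

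Most other acute-phase genes were too low to test. Of 19 on the list (Saa4, haptoglobin, orosomucoids, fibrinogen chains, hepcidins and others), all were in the table and 2 passed the filter, C3 and Lbp, neither of which was called in any comparison without a block. C3, the central complement component, had 56.0, 2.90 and 4.68 TPM in enterocyte-enriched replicates 1, 2 and 3, against 7.88, 0.811 and 1.73 TPM in the goblet-enriched and 36.2, 1.81 and 2.28 TPM in the Lgr5-enriched ones, with replicate 1 highest in each population. Lbp, which hands lipopolysaccharide to Cd14, had 43.0, 1.21 and 3.86 TPM in enterocyte-enriched replicates 1, 2 and 3, against 0.486, 0.300 and 1.38 TPM in the goblet-enriched and 6.60, 0.735 and 1.34 TPM in the Lgr5-enriched ones. With the replicate block, both C3 and Lbp were called higher in enterocyte-enriched than in goblet-enriched cells (limma adjusted p = 0.00617 and 0.0306). These p-values too are a description, as the libraries of replicate 1 are not all from 1 animal. Saa4, the serum amyloid A gene with steady expression in liver, had 1.02 TPM in enterocyte-enriched replicate 1 and at most 0.0857 TPM in the other 8 libraries.

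Of 24 receptors and signalling genes behind acute-phase induction, 5 were called higher and 3 lower in the enterocyte-enriched against the Lgr5-enriched population, with a median log2 fold change of -0.05 against -0.35 over all genes tested. The shares of all genes tested were 12% higher and 37.6% lower. Il22ra1, the epithelial receptor chain for IL-22, averaged 30.2 ± 11.5 TPM in the enterocyte-enriched, 9.91 ± 2.23 in the goblet-enriched and 12.9 ± 1.98 in the Lgr5-enriched population (SD, n = 3 each; log2 fold change against Lgr5-enriched 1.12, limma adjusted p = 0.006912; against goblet-enriched 1.47, 0.002087). Cebpd, a C/EBP factor of the acute-phase response, averaged 79.1 ± 8.96, 11.1 ± 0.696 and 37.3 ± 13.5 TPM in the same order, and was called in every comparison (log2 fold changes 1.11, 2.72 and -1.61 for enterocyte-enriched against Lgr5-enriched, enterocyte-enriched against goblet-enriched and goblet-enriched against Lgr5-enriched; limma adjusted p = 0.003195, 5.232e-05 and 0.000911).

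Il6ra, Il17rc and Il10rb were the other higher receptors against Lgr5-enriched cells, with log2 fold changes of 1.38, 1.21 and 0.74. Traf6, Il1rap and Nfkb1 were called lower, with log2 fold changes of -0.70, -0.64 and -0.63. Median-of-ratios scaling left 0 of the list lower, and the Il1rap call was lost in 9 of 18 alternatives. Stat3, the main transcription factor of IL-22 and IL-6 signalling, was at 125 ± 12.8, 121 ± 20.2 and 99.5 ± 6.13 TPM and was not called. Against the goblet-enriched population 15.9% of all genes tested were called higher and 28.2% lower in the unblocked fit. Of this list 4 were higher and 2 lower there (8 and 5 with the replicate block). The lower ones were Traf6 and Jak1, a kinase of cytokine receptors, and their number moved in 14 of 19 alternatives, with the Jak1 call (limma adjusted p = 0.04571) held in 7. Between goblet-enriched and Lgr5-enriched cells 1 was higher and 3 lower (2 and 6 with the block). Without the block, 10.7% of all genes tested were higher and 23.6% lower there. Socs3, a feedback inhibitor of this signalling, averaged 36.1 ± 3.49 TPM in the enterocyte-enriched and 15.4 ± 9.62 TPM in the goblet-enriched population (log2 fold change 1.33, limma adjusted p = 0.01317).

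Of 5 tested receptors described for serum amyloid A, 0 were called higher and 2 lower in the enterocyte-enriched against the Lgr5-enriched population. Over all genes tested, 12% were called higher and 37.6% lower. The median log2 fold change of the 5 was -0.50, against -0.35 over all genes tested. The lower genes were Scarb1 and P2rx7, an ATP-gated channel, whose call (limma adjusted p = 0.0462) was lost in 12 of 19 alternatives, among them those without any single enterocyte-enriched library. Scarb1, a lipoprotein receptor, averaged 16.7 ± 3.38 TPM in the enterocyte-enriched, 34.7 ± 4.98 in the goblet-enriched and 42.6 ± 8.29 in the Lgr5-enriched population (limma log2 fold change against the last -1.30, adjusted p = 0.0009822). Of 12 tested Toll-like receptors and adaptors, 1 was higher, Tlr1, and 1 lower, Myd88 (2 and 4 with the replicate block), and the Tlr1 and Myd88 calls held in 14 and 5 of 19 alternatives, neither without enterocyte-enriched replicate 1. Tlr2 averaged 21.9 ± 1.64, 6.08 ± 0.791 and 32.2 ± 9.70 TPM in the enterocyte-enriched, goblet-enriched and Lgr5-enriched populations. It was higher in enterocyte-enriched than in goblet-enriched cells (log2 fold change 1.70, limma adjusted p = 0.0002847).

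Lypd8 was among the most abundant transcripts of the enterocyte-enriched population. It had 33388, 12191 and 14640 TPM in enterocyte-enriched replicates 1, 2 and 3, against 845, 795 and 1508 TPM in the goblet-enriched and 1950, 2025 and 2288 TPM in the Lgr5-enriched ones. In the enterocyte-enriched libraries it ranked 1, 2 and 2 among all genes, with 3.34%, 1.22% and 1.46% of the TPM total. The groups did not overlap in any comparison, and even the lowest library, goblet-enriched replicate 2, ranked it at 155. The gene lies at chr11:58379043-58390728 on the plus strand.

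Lypd8 was 9.61-fold higher by means in enterocyte-enriched than in Lgr5-enriched cells (limma log2 fold change 3.12, SE 0.38, adjusted p = 0.0003513; without enterocyte-enriched replicate 1, 2.68 and 0.0006735). Against goblet-enriched cells it was 19.1-fold higher (log2 fold change 4.17, limma adjusted p = 7.637e-05). In goblet-enriched against Lgr5-enriched cells its log2 fold change was -1.05 (SE 0.38) and missed the threshold (limma adjusted p = 0.06004). With the replicate block it was called (0.04373), and the adjusted p ran from 0.004178 to 0.1684 over 19 alternatives, 7 of which called it lower.

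The other Ly6/uPAR domain genes differed between the comparisons. Of 22 listed, 20 were in the table and 7 were tested, with 2 higher and 0 lower in the enterocyte-enriched against the Lgr5-enriched population (4 higher with the block; median log2 fold change 1.00, against -0.35 over all genes tested). Against the goblet-enriched population 2 were higher and 3 lower, with a median of -0.97, against -0.20 over all genes tested. Without the block, 12% of all genes tested were higher and 37.6% lower in the first comparison, and 15.9% and 28.2% in the second. Ly6a, also known as Sca-1, had 2613, 328 and 702 TPM in enterocyte-enriched replicates 1, 2 and 3, against 237, 25.1 and 92.1 TPM in the goblet-enriched and 320, 44.7 and 127 TPM in the Lgr5-enriched ones. It was highest in replicate 1 of each population, and called against both (limma adjusted p = 0.04323 against Lgr5-enriched and 0.02326 against goblet-enriched cells; 4.91e-05 and 3.71e-05 with the replicate block). Its p-values with the block are a description, for the block takes out such differences between replicates. Without enterocyte-enriched replicate 1, among other libraries, neither Ly6a call held, and over 19 alternatives the limma adjusted p reached 0.149 and 0.082. Lypd6b was instead highest in goblet-enriched cells, at 26.2 ± 6.33 TPM, against 6.02 ± 0.457 in the enterocyte-enriched and 1.08 ± 0.398 in the Lgr5-enriched population.

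**Figure D4:**
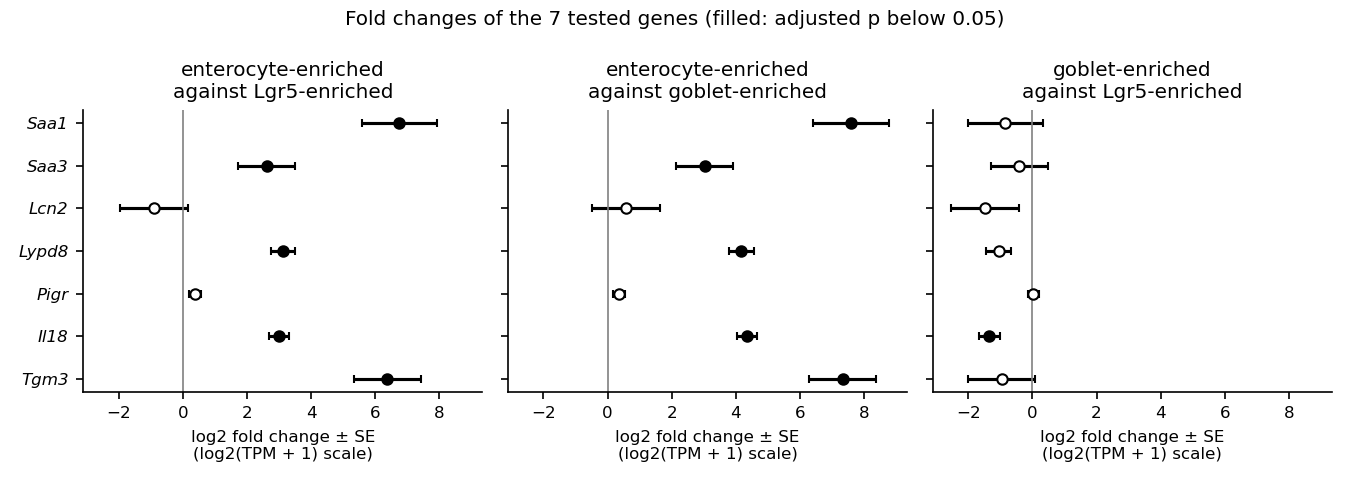
Log2 fold changes of the 7 tested genes in the 3 comparisons, on the log2(TPM + 1) scale, as points with the standard error from limma as bars, filled where the adjusted p is below 0.05. Saa1 and Tgm3 have the largest values against both other populations, the bars are widest for Saa1, Lcn2 and Tgm3, and Pigr lies near 0 in all 3.

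Tgm3 separated the populations almost as widely as Saa1, with closer agreement among enterocyte-enriched libraries. It had 949, 844 and 673 TPM in enterocyte-enriched replicates 1, 2 and 3, against 0.423, 1.65 and 33.8 TPM in the goblet-enriched and 2.82, 16.1 and 13.5 TPM in the Lgr5-enriched ones. Enterocyte-enriched libraries were all high, and goblet-enriched replicate 3 stood above its partners, as it did for Saa1. Against Lgr5-enriched cells Tgm3 was 76.1-fold higher by means (limma log2 fold change 6.38, SE 1.04, adjusted p = 0.00117). Without enterocyte-enriched replicate 1 its log2 fold change there was 6.26 (limma adjusted p = 0.00534), where that of Saa1 was 5.83. The log2 fold changes against goblet-enriched cells without that library were 7.22 for Tgm3 and 6.67 for Saa1. With all libraries Tgm3 was 68.8-fold higher by means against goblet-enriched cells (log2 fold change 7.33, limma adjusted p = 0.0006385). Without goblet-enriched replicate 3 the ratio of means was 794. Goblet-enriched against Lgr5-enriched cells gave a log2 fold change of -0.95 (limma adjusted p = 0.5059), and -2.34 without goblet-enriched replicate 3, where it was called (0.02388).

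The other transglutaminases did not follow Tgm3 as a list. Of 7 listed in the files, 3 were tested, with 0 higher and 1 lower in the enterocyte-enriched against the Lgr5-enriched population (2 lower with the block, 1 higher with no filter on low values) and a median log2 fold change of -0.70, against -0.35 over all genes tested. In the main fit 12% of all genes tested were called higher in this comparison and 37.6% lower. Tgm2, the widely expressed tissue transglutaminase, averaged 8.39 ± 8.42 TPM in the enterocyte-enriched, 5.78 ± 0.945 in the goblet-enriched and 38.0 ± 16.1 in the Lgr5-enriched population. It was lower in the enterocyte-enriched (log2 fold change -2.34, limma adjusted p = 0.006867) and in the goblet-enriched (-2.45, 0.009217) than in the Lgr5-enriched population.

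Pigr was high in every library and, of the 8 genes, differed least between them. It had 6032, 4855 and 5169 TPM in enterocyte-enriched replicates 1, 2 and 3, against 4262, 4300 and 4035 TPM in the goblet-enriched and 3420, 4404 and 4571 TPM in the Lgr5-enriched ones. It ranked between 4 and 12 among all genes in each of the 9 libraries. The enterocyte-enriched values lay above all 6 others. In each comparison alone, this held for 16.2% of all genes tested against Lgr5-enriched and 20.4% against goblet-enriched cells. The share of genes above both was not computed. The difference was not called (limma log2 fold change 0.38, SE 0.19, adjusted p = 0.118 against Lgr5-enriched cells; 0.34, SE 0.19, 0.1597 against goblet-enriched cells). Relative to the median of all genes it was 0.72 and 0.55. Median-of-ratios scaling gave calls against both (log2 fold changes 0.79 and 0.53, limma adjusted p = 0.007067 and 0.04079), while under quantile normalization the first was -0.15. Between goblet-enriched and Lgr5-enriched cells the log2 fold change was 0.03 (limma adjusted p = 0.8997).

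Of 8 tested genes of polymeric immunoglobulin transcytosis, 1 was higher and 1 lower in the enterocyte-enriched against the Lgr5-enriched population. The numbers were 4 and 1 with the replicate block, and 5 and 1 under median-of-ratios scaling. Over all genes tested, the unblocked fit called 12% higher and 37.6% lower, which is 1549 and 4847 genes. With the block 2050 genes were higher and 5841 lower. Under median-of-ratios scaling 3028 were higher and 2522 lower. Rab11a, a GTPase of recycling endosomes, was the higher one, at 144 ± 26.8 against 94.7 ± 11.6 TPM (limma adjusted p = 0.02178), and Yes1, a Src-family kinase, the lower one, at 29.7 ± 1.16 against 66.7 ± 8.52 TPM (0.002002). The Rab11a call was lost without enterocyte-enriched replicate 1 or Lgr5-enriched replicate 2 or 3 (limma adjusted p up to 0.0762), and its call against goblet-enriched cells held in 14 of 19 alternatives. Against the goblet-enriched population 4 were higher, Fcgrt, Rab17, Myo5b and Rab11a, and 1 lower, Rab3d. There 15.9% of all genes tested were called higher and 28.2% lower. Fcgrt, the neonatal Fc receptor for IgG, averaged 73.9 ± 11.0 TPM in the enterocyte-enriched and 11.3 ± 4.19 in the goblet-enriched population (log2 fold change 2.66, limma adjusted p = 0.0005388). Rab3d, a GTPase of secretory granules, averaged 125 ± 15.3 TPM in the enterocyte-enriched and 386 ± 18.5 in the goblet-enriched population. Jchain, which plasma cells supply to polymeric IgA, averaged at most 0.0936 TPM in any population.

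Of the 8 genes, Il18 varied least among the enterocyte-enriched libraries. It had 478, 449 and 472 TPM in enterocyte-enriched replicates 1, 2 and 3, a coefficient of variation of 3.32%, against 14.2, 20.6 and 36.4 TPM in the goblet-enriched and 39.7, 70.5 and 67.0 TPM in the Lgr5-enriched ones. The 3 populations did not overlap, in the order enterocyte-enriched, Lgr5-enriched and goblet-enriched from high to low. Il18 was 7.89-fold higher by means in enterocyte-enriched than in Lgr5-enriched cells (limma log2 fold change 3.00, SE 0.32, adjusted p = 0.0002352) and 19.6-fold higher than in goblet-enriched cells (4.34, 3.87e-05). Without enterocyte-enriched replicate 1 the log2 fold changes were 2.98 and 4.32. It was lower in goblet-enriched than in Lgr5-enriched cells (limma log2 fold change -1.34, SE 0.32, adjusted p = 0.01168), and this call held in all 19 alternatives.

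Of 16 tested genes of IL-18 processing, inhibition and reception, 5 were higher and 1 lower in the enterocyte-enriched against the Lgr5-enriched population, with a median log2 fold change of 0.03 against -0.35 over all genes tested. The same fit called 12% of all genes tested higher and 37.6% lower. Casp1, the protease that cuts the IL-18 precursor, averaged 319 ± 74.8 TPM in the enterocyte-enriched, 111 ± 27.8 in the goblet-enriched and 189 ± 30.5 in the Lgr5-enriched population. Its log2 fold change was 0.74 against Lgr5-enriched cells (limma adjusted p = 0.01945) and 1.52 against goblet-enriched cells (0.0006623). The first of these calls was lost without enterocyte-enriched replicate 1 or Lgr5-enriched replicate 2 or 3 (limma adjusted p up to 0.0659). Gsdmd, the pore-forming gasdermin D, averaged 255 ± 117, 87.9 ± 9.65 and 79.7 ± 3.56 TPM in the same order, and the inflammasome sensors Naip1 and Nlrp1b had log2 fold changes of 1.90 and 1.64 against Lgr5-enriched cells. Il1rn, the IL-1 receptor antagonist, averaged 116 ± 33.7, 15.98 ± 0.825 and 28.3 ± 12.1 TPM. Il33, an alarmin of the same cytokine family, was lower in enterocyte-enriched than in Lgr5-enriched cells, at 1.53 ± 0.810 against 5.70 ± 1.75 TPM (log2 fold change -1.43, limma adjusted p = 0.004968).

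Against the goblet-enriched population the 16 had a median log2 fold change of 0.63, against -0.20 over all genes tested. The unblocked fit called 15.9% of all genes tested higher there and 28.2% lower. Of the 16, 8 were higher in the enterocyte-enriched population and 0 lower (1 lower with the replicate block). The widest was Nlrp6, an inflammasome sensor of the gut epithelium, at 187 ± 80.3 against 19.6 ± 12.2 TPM (log2 fold change 3.30, limma adjusted p = 0.0005388). Nlrp6 averaged 180.1 ± 21.4 TPM in the Lgr5-enriched population and was not called between it and the enterocyte-enriched one (log2 fold change -0.03, limma adjusted p = 0.9595). Pycard, the adaptor that joins sensor and caspase, averaged 230.2 ± 15.6 TPM in the enterocyte-enriched and 87.6 ± 8.96 TPM in the goblet-enriched population. In goblet-enriched against Lgr5-enriched cells 0 were higher and 6 lower, Nlrp6, Il33, Pycard, Casp1, Naip1 and Aim2. Median-of-ratios scaling left 3 of them lower. Without that scaling, 10.7% of all genes tested were called higher and 23.6% lower in this comparison. The calls of Casp1, Naip1 and Aim2 were each lost without goblet-enriched replicate 2 or 3 or Lgr5-enriched replicate 3.

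The IL-18 antagonist Il18bp followed the replicate number. It had 42.6, 9.61 and 17.6 TPM in enterocyte-enriched replicates 1, 2 and 3, against 19.3, 6.76 and 9.11 TPM in the goblet-enriched and 15.0, 6.47 and 8.61 TPM in the Lgr5-enriched ones. It was not called against Lgr5-enriched cells (log2 fold change 0.97, limma adjusted p = 0.1612) or goblet-enriched cells (0.81, 0.2448), and both were called with the replicate block (0.00278 and 0.00688). Replicate 1 was its highest library in each population, and the block takes out such differences. The blocked p-values are therefore a description and not an independent test. The receptor chain Il18r1 averaged at most 0.0870 TPM in any population.

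**Figure D5:**
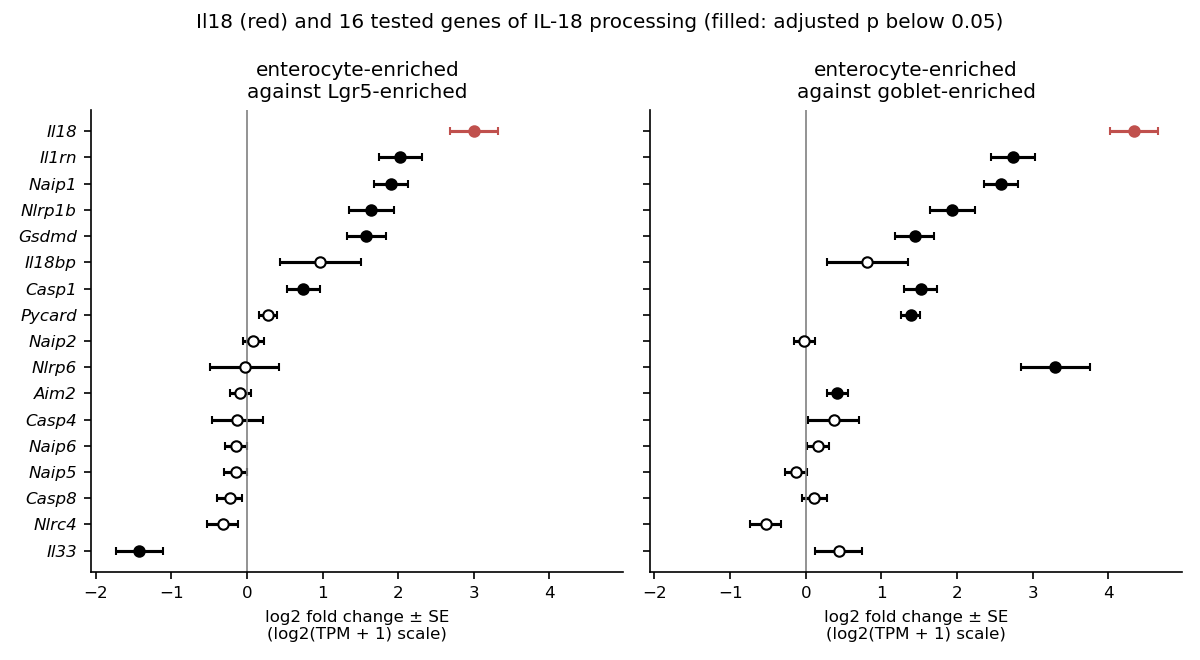
Log2 fold changes of Il18 (red) and the 16 tested genes of IL-18 processing, inhibition and reception in enterocyte-enriched against Lgr5-enriched (left) and against goblet-enriched cells (right), on the log2(TPM + 1) scale with the limma standard error as bars, filled where the adjusted p is below 0.05. Il18 has the largest change in both panels, and Nlrp6 is near 0 on the left and at 3.30 on the right.

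Among 22 tested antimicrobial and barrier genes outside the 8, 9 were higher and 2 lower in the enterocyte-enriched against the Lgr5-enriched population. With the replicate block the numbers were 12 and 5. Over all genes tested, the unblocked fit called 12% higher and 37.6% lower. With the block the calls over all genes rose too, from 1549 to 2050 higher and from 4847 to 5841 lower. Of the 9, Alpi (mean 6.09 against 0.198 TPM) passed the filter only through the enterocyte-enriched libraries. All 10 goblet cell markers, Zg16 among them, were called higher in this comparison too. Zg16, a mucus lectin, averaged 5481 ± 2152 TPM in the enterocyte-enriched, 345 ± 223 in the goblet-enriched and 95.2 ± 34.2 in the Lgr5-enriched population (limma log2 fold change against the last 5.82, adjusted p = 0.0001729). Ang4, Retnlb and Lyz2 followed, with log2 fold changes of 4.82, 4.11 and 3.87. The Retnlb and Lyz2 calls were lost in 5 and 8 of 19 alternatives, among them the one without enterocyte-enriched replicate 1 (limma adjusted p up to 0.0974 and 0.151). Ang4 and Retnlb, made by goblet and deep crypt secretory cells, had higher means in the goblet-enriched than in the enterocyte-enriched population, 351 ± 213 TPM in the enterocyte-enriched against 821 ± 907 in the goblet-enriched population for Ang4. Neither was called between these populations (limma adjusted p = 0.4624 for Ang4 and 0.0942 for Retnlb), while with the replicate block Retnlb was lower in the enterocyte-enriched one (0.000377). The receptors of bacterial cell wall fragments Nod1 and Nod2 were the lower genes, at 13.1 ± 4.19 against 53.0 ± 8.35 TPM and 2.23 ± 0.233 against 9.40 ± 1.82 TPM.

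Against the goblet-enriched population 5 of these 22 were higher and 3 lower in the enterocyte-enriched one (8 and 7 with the block). There the unblocked fit called 15.9% of all genes tested higher and 28.2% lower. Lgals3, a galactose-binding lectin of mature colonocytes, averaged 3164 ± 496 TPM in the enterocyte-enriched and 207 ± 82.3 in the goblet-enriched population (limma adjusted p = 9.511e-05). In goblet-enriched against Lgr5-enriched cells 6 were higher and 2 lower (9 and 7 with the block). The shares of all genes tested were 10.7% higher and 23.6% lower there, without the block. Of the 3 tested lipocalins and lipocalin-2 receptors outside Lcn2, the receptor Slc22a17 averaged 0.594 ± 0.0453 TPM in the enterocyte-enriched, 5.36 ± 3.75 in the goblet-enriched and 1.79 ± 0.862 in the Lgr5-enriched population. It was called lower in enterocyte-enriched than in goblet-enriched cells (limma adjusted p = 0.02279), a call lost in 6 of 18 alternatives, among them those without any single enterocyte-enriched library. Rbp4, the plasma retinol carrier, was highest in goblet-enriched cells, at 68.9 ± 23.0 TPM, against 7.78 ± 2.25 in the enterocyte-enriched and 2.29 ± 0.799 in the Lgr5-enriched population.

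The genes with the most similar profiles over the 9 libraries were listed for each tested gene among those reaching a population mean of 10 TPM, as a description. For Saa1 they were Prss30, Car4 and Krt20 (Pearson r = 0.996, 0.994 and 0.992). Car4, a carbonic anhydrase, and Krt20, a keratin, are markers of mature colonocytes. Car4 had 1992, 330 and 562 TPM in enterocyte-enriched replicates 1, 2 and 3, against 0.270, 0.583 and 32.2 TPM in the goblet-enriched and 7.22, 5.87 and 12.8 TPM in the Lgr5-enriched ones, so that both the high enterocyte-enriched library and the high goblet-enriched library of Saa1 were the same for Car4. For Lypd8 the genes were Slc13a2os, Prdx6 and Pdlim2 (0.997, 0.996 and 0.995), for Il18 2200002D01Rik, Eif4ebp3 and Mgst3 (0.997, 0.996 and 0.996), and for Tgm3 Cyp2c55, Cox6a1 and Ccdc32 (0.988, 0.984 and 0.984). For Pigr they were Brpf3, Slc46a1 and Klf3 (0.979, 0.968 and 0.963). For Saa3 they were Lyz2, Cry1 and Neu1 (0.940, 0.935 and 0.929), and for Lcn2 Tma7, Fam96a and Nos2 (0.963, 0.950 and 0.941). All these values share libraries and the difference between populations.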

How the data were processed

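EDTA-detached colon crypts were dissociated with enzymes and sorted, per the labels' protocols, and RNA of the sorted cells was made into stranded poly-A libraries. There were 2 instruments, one run single-end and the other paired-end, and which library went to which was not used here. The series text gives 3 independent mice. Per the submitters' processing notes Cufflinks and mm10 were used, and aligner, annotation and strand setting were not given in the sources used here. The authors deposited 1 log2 value per gene symbol and library, a logarithm of TPM from 1 TPM upwards and a linear TPM minus 1 for smaller ones, so that the lowest value is -1 and each back-transformed column sums to 1000000. The table had 0 unused sample columns. TPM fixes the same total in every library, so very abundant transcripts such as Lypd8 lower the others, and reads of near-identical paralogs can be split.

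Whole reads were recovered from TPM and gene length for 18386 of 18396 genes above 0 (99.95%, tolerance 1e-06 of a read) and are lower bounds. log2(TPM + 1) was tested with limma 3.58.1 in R 4.3.3 (mean-variance trend, 1 mean per population over 9 libraries, no covariate), two-sided, over the 12888 genes that reached 1 TPM in 3 or more libraries, which left out 5508 detected ones. Residual degrees of freedom were 6 and prior ones 3.21. The step was also run on simulated data with a fixed spread and no replicate or sex effects. That run checked the code and does not test the calls made here. Fold changes on this scale understate the change of low genes. The spread behind the p-values is that between libraries, where animal, sex and run may be mixed.

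Same-numbered libraries deviated together from their population means (Pearson r across genes 0.194 to 0.601 for all 9 pairs). The numbers may thus pair the samples, which rests on the data and not on a label. The main fit used no pairing, and the replicate block was an alternative. The sex-linked transcripts show that the libraries of replicate 1 are not all from 1 animal. The fit with the replicate block is given where it changed a call or moved a count. Because the numbers are not a labelled pairing, p-values from that fit are a description and not an independent test.

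The 8 genes, 10 related lists and 7 marker lists were chosen with earlier results of these data known. Named list genes are up to 4 called genes with the largest change in each direction plus genes named for their role, and for each tested gene of the 8 the 3 most similar. Alternatives were the pseudocount (0.1), the filter on low values (none, or 5 TPM), median-of-ratios scaling, quantile normalization, the 6 libraries compared alone, array weights, the replicate block, leaving out each library or replicate 1 of every population, and limma-voom on recovered reads. Promoters were taken from RefSeq (GRCm38.p6) and gene positions from GENCODE M21 on mm10.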

Additional observations from a re-analysis of the deposited data

How the results depend on the processing

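The calls of Saa1, Lypd8, Il18 and Tgm3 in the enterocyte-enriched against both other populations held in all 19 alternatives, and so did the lower Il18 in goblet-enriched against Lgr5-enriched cells. Over the 7 tested genes and 3 comparisons, 390 alternative values were computed, of which 354 kept direction and call, 15 lost the call (all of Saa3), 11 gained it (Lypd8, Pigr and Tgm3) and 10 changed sign, none of these called. Leaving out 1 library gave 4 to 5 of the 7 called higher in the enterocyte-enriched population against each of the others. In goblet-enriched against Lgr5-enriched cells the number called lower was 1, and 2 under quantile normalization, with only the 6 libraries compared, with array weights, with the replicate block and without replicate 1 of every population, and 1 to 3 when 1 library was left out. There 4423 genes were called in all, 7611 with array weights and 2646 to 4597 when 1 library was left out (2646 without Lgr5-enriched replicate 3). With the replicate block the genes called numbered 7891 in enterocyte-enriched against Lgr5-enriched cells. They were 2050 higher and 5841 lower, against 1549 and 4847 without the block. For enterocyte-enriched against goblet-enriched cells the block gave 2653 higher and 4683 lower, against 2054 and 3633. In goblet-enriched against Lgr5-enriched cells it gave 1794 and 4563, against 1384 and 3039.

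Signs changed as follows. For enterocyte-enriched against Lgr5-enriched cells, Pigr was at -0.15 under quantile normalization and Lcn2 at 0.50 without Lgr5-enriched replicate 1. For goblet-enriched against Lgr5-enriched cells, Pigr was at -0.32 under quantile normalization, -0.089 with array weights, -0.10 without Lgr5-enriched replicate 1 and -0.11 without replicate 1 of every population. Saa3 was at 0.22 with array weights, 0.27 without goblet-enriched replicate 1 and 0.082 without replicate 1 of every population, where Saa1 was at 0.095. Over the fits with 1 library left out these values ran from -1.90 to 0.50 for Lcn2 in the first comparison, and from -0.93 to 0.27 for Saa3 and -0.10 to 0.11 for Pigr in the second. The cause was not tested. Lcn2 gave a value in 17 and Saa3 in 18 of the 19 alternatives. Depth limits Saa2 and Lcn2, which rest on 25 and 271 reads over 9 libraries.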
